A study of Mus musculus with 12 samples.

Results

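Alternative promoters were examined in the H3K4me3 landscape of cardiomyocyte (CM) nuclei through the autosomal genes that were assigned 2 or more separate H3K4me3 peaks. A gene was included when its identifier stood in at least 2 rows of the peak table, a rule that uses no measured level. It gave 617 peaks of 307 genes, out of 15848 peaks in all and 11984 autosomal genes with a peak. Of these genes 304 carried 2 peaks and 3 carried 3 peaks (Pde4a, Foxo6 and Gm11292), which makes 310 pairs of neighbouring peaks. In each pair the peak nearer to the 5′ side of the gene is called upstream and the other downstream, along the strand of the gene.

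The libraries came from adult mouse CM nuclei that were sorted by FACS and precipitated with an antibody to H3K4me3. CtrlCre mice carried αMHC-Cre with 2 intact copies of Cpt1b (αMHC-Cre pos/+;Cpt1b +/+), and Cpt1bcKO mice carried αMHC-Cre with both copies floxed (αMHC-Cre pos/+;Cpt1b fl/fl), with 3 libraries for each genotype. Both genotypes therefore carried the Cre transgene, which is driven by the CM promoter of αMHC, and Cpt1b (which encodes the carnitine palmitoyltransferase that brings long-chain fatty acids into mitochondria for oxidation) was inactivated in CMs from embryonic stages on. The age is given as adult, without a number. A legend of the study speaks of several mice of each genotype for an analysis that drew on these data, but the labels do not tie a library to an animal, so that p-values measure the spread between these libraries.

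H3K4me3, trimethylated lysine 4 of histone H3, is laid down around transcription start sites and is strongest at active promoters, in particular at CpG islands. Its level on a promoter broadly follows how much the promoter is used, and broad domains mark cell identity genes. A gene with several starts can be read from different promoters, which may give different first exons, different proteins or different regulation. A second peak near a gene may also belong to an enhancer, to an internal stretch of a broad domain or to the start of another gene. Methyltransferases of the KMT2 family write the mark and demethylases of the KDM5 family remove it.

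The sequences at 4 genes show the kinds of start on which the results below turn. Mylk3 was chosen by the rule for sequences, and Sgca, Bbc3 and Nr4a1 were chosen after their values had been seen. Each line gives 200 bases of GRCm38.p6 on the strand of the gene, 5′ to 3′, that end at the most upstream annotated start inside the peak, moved up by 7 bases for the Mylk3 downstream peak, 26 bases for the Sgca downstream peak and 33 bases for the Bbc3 upstream peak to leave out an exon. The window of the Nr4a1 upstream peak, which holds no annotated start, is centred on the peak summit. Capitals mark CpG dinucleotides.
Mylk3 upstream peak, chr8:85386346-85386545, minus strand: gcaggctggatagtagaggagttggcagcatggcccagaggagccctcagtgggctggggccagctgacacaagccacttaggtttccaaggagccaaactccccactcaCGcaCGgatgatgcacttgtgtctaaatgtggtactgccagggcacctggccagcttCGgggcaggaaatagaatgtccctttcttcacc
Mylk3 downstream peak, chr8:85381042-85381241, minus strand: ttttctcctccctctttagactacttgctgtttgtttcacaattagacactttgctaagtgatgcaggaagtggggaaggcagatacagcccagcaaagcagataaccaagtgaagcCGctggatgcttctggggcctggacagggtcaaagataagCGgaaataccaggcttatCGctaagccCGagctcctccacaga
Sgca upstream peak, chr11:94976328-94976527, minus strand: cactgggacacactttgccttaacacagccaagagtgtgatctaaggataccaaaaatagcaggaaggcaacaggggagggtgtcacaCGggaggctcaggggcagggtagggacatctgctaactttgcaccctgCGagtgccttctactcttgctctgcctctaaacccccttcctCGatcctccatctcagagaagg
Sgca downstream peak, chr11:94973490-94973689, minus strand: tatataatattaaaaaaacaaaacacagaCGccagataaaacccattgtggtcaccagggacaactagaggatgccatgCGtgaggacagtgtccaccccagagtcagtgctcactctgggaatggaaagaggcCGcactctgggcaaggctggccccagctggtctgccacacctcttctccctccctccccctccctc
Bbc3 upstream peak, chr7:16309383-16309582, plus strand: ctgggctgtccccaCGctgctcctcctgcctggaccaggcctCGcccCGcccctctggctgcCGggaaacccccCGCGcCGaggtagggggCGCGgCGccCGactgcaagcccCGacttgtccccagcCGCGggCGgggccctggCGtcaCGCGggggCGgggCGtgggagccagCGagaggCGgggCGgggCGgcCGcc
Bbc3 downstream peak, chr7:16313317-16313516, plus strand: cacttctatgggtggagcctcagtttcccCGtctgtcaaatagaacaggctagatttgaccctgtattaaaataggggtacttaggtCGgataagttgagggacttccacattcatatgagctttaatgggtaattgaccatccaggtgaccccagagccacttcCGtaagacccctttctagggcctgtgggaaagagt
Nr4a1 upstream peak, chr15:101261052-101261251, plus strand: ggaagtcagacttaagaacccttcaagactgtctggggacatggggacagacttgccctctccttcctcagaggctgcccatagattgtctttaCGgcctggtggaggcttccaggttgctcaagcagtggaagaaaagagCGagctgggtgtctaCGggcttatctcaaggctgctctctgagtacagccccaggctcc
Nr4a1 downstream peak, chr15:101266646-101266845, plus strand: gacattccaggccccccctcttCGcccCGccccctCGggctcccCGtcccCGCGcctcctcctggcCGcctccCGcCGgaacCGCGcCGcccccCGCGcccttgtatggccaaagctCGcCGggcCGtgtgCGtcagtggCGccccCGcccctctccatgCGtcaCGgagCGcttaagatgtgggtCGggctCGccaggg

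The windows fall into 2 kinds. Those of the Bbc3 upstream peak and the Nr4a1 downstream peak each hold 25 CpG dinucleotides, with a GC content of 81.0% and 76.0%. The Mylk3, Sgca, Bbc3 downstream and Nr4a1 upstream windows hold 3 or 4 CpG dinucleotides each. Both CpG-rich windows hold the GC box GGGCGG on either strand, and none of the 8 windows holds the letters TATAAA or the MEF2 pattern, which is CTA and TAG with 4 bases between them.

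Peaks of genes with several peaks had a lower median level, a smaller median width and less CpG than peaks of genes with 1 peak. Levels are normalised counts, averaged over the 6 libraries. The median level was 56.2 over the 617 peaks, 120.5 over 11677 autosomal peaks of genes with 1 peak and 24.0 over 3062 autosomal peaks without an assigned gene. Per kilobase of peak the medians were 43.0 for genes with several peaks and 68.8 for genes with 1 peak. The median width was 1234 bases against 1604 and 831.5 bases. In the 1000 bases around the peak centre, the median ratio of observed to expected CpG was 0.598 against 0.713 and 0.407, and the median GC content was 56.4% against 59.1% and 50.1%. The GC box was found in 69.5% of these windows for genes with several peaks, 80.2% for genes with 1 peak and 45.4% for peaks without a gene, and TATAAA in 23.0%, 19.9% and 35.9%. For the MEF2 pattern the shares were 11.5%, 9.8% and 15.8%, and over all 15848 windows they were 73.0% for the GC box, 23.3% for TATAAA and 11.1% for the MEF2 pattern. These are descriptions of base composition, with overlap between motifs allowed and both strands read.

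Levels differed between peaks with and without a start of their own gene. Annotated transcript starts of the same gene lay inside 332 of the 617 peaks (53.8%), against 91.9% of peaks of genes with 1 peak. The 332 peaks had a median level of 97.0, a median width of 1506 bases and a median CpG ratio of 0.665. The other 285 peaks had medians of 26.2, 856 bases and 0.463, close to those of peaks without a gene. A start of another gene lay inside 116 of the 617 peaks (18.8%).

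**Figure D1:**
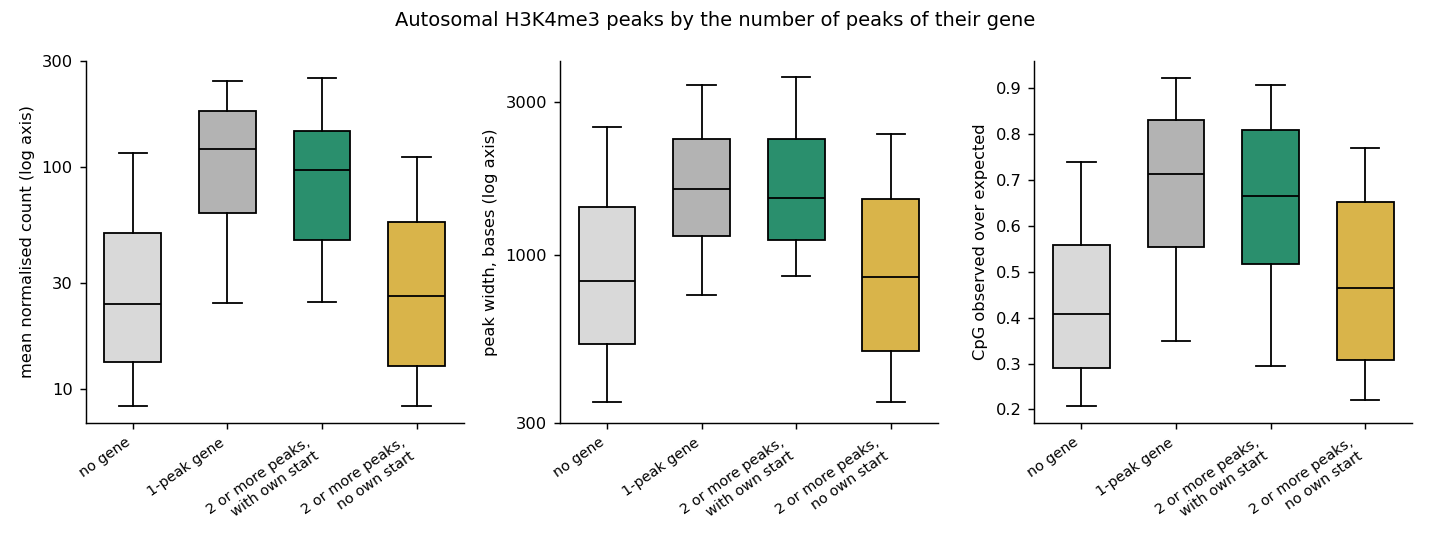
Level (mean normalised count over 6 libraries, log axis), width (bases, log axis) and CpG observed over expected of autosomal peaks without a gene, of genes with 1 peak, and of genes with 2 or more peaks with or without an annotated start of the gene inside. Boxes give the quartiles and the median and whiskers the 10th and 90th percentiles. Peaks of multi-peak genes without an own start (median level 26.2) sit near the peaks without a gene (24.0), and those with one (97.0) nearer to the peaks of genes with 1 peak (120.5).

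How far apart peaks of a gene could lie was set by the assignment of peaks to starts in a window of 5000 bases on either side. The gap between neighbouring peaks had a median of 2690 bases, from 391 bases at R3hdm2 to 7660 bases at Gm28166, and 17 of 310 pairs had a gap under 1000 bases. Not every start of a member lay in an assigned peak. The vM21 start of Nr4a1-202 lay in another peak, chr15:101253776-101254846, with normalised counts of 33, 28 and 28 in CtrlCre and 37, 38 and 50 in Cpt1bcKO, that was assigned to no gene in the table.

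Both peaks of a pair held an annotated start of the gene in 47 of 310 pairs (15.2%, 95% Wilson interval 11.6 to 19.6%), the pairs that the annotation describes as alternative promoters. In 240 pairs 1 peak held a start. The companion peak then held no annotated start in 191 pairs and a start of another gene in 49. In 23 pairs neither peak held a start, and in 17 of these the annotated start lay in the gap between them, as at Kdm6b and Pde4a. Over 310 pairs the downstream peak was the higher in 181 and the upstream peak in 129. The start was in the downstream peak in 156 and in the upstream peak in 84 of the 240 pairs with a start in 1 peak.

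The higher peak had a median of 2.84-fold the level of the lower one, with quartiles of 1.51 and 6.98-fold. In 75 pairs the means differed by under 1.5-fold and in 122 by over 4-fold. Among genes with exactly 2 tested peaks, the closest levels were those of the non-coding gene Gm26698 (means of 47.5 upstream and 48.3 downstream), Lrg1, which encodes a secreted glycoprotein (169.7 and 175.0), and the cation transporter gene Slc12a9 (38.0 and 36.7). The widest were those of Xirp1, an actin-binding protein of the intercalated disc (10.2 and 430.8), Ctnna1, the αE-catenin of adherens junctions (363.8 and 11.7), and Tnnt2, cardiac troponin T (24.8 and 666.0). Pairs with a peak under the minimum level reached 103-fold, at Gja1, the gap junction protein connexin 43 (7.50 upstream and 772.3 downstream). In 239 of 310 pairs the same peak was the higher in all 6 libraries, the downstream one in 143 and the upstream one in 96.

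Where 1 peak held the start, that peak was the higher in 187 of 240 pairs and in all 6 libraries in 160. The median levels were 101.3 for start-bearing peaks and 28.3 for companions, and per kilobase 61.0 and 31.7, with the start-bearing peak higher per kilobase in 177 pairs. The companion was the higher in all 6 libraries in 32 pairs. Among them were Nmrk2, which encodes a muscle kinase of NAD synthesis (12 to 31 over the libraries at its start against 286 to 468 in a companion that holds the start of another gene), Egr3, an immediate-early transcription factor (means of 6.83 against 56.2, the first under the tested level), Qki, an RNA-binding splicing regulator (108.7 against 720.5), and Aurkb, the Aurora kinase B of mitosis (45.0 against 297.0). These 4 genes were chosen after their values were seen.

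**Figure D2:**
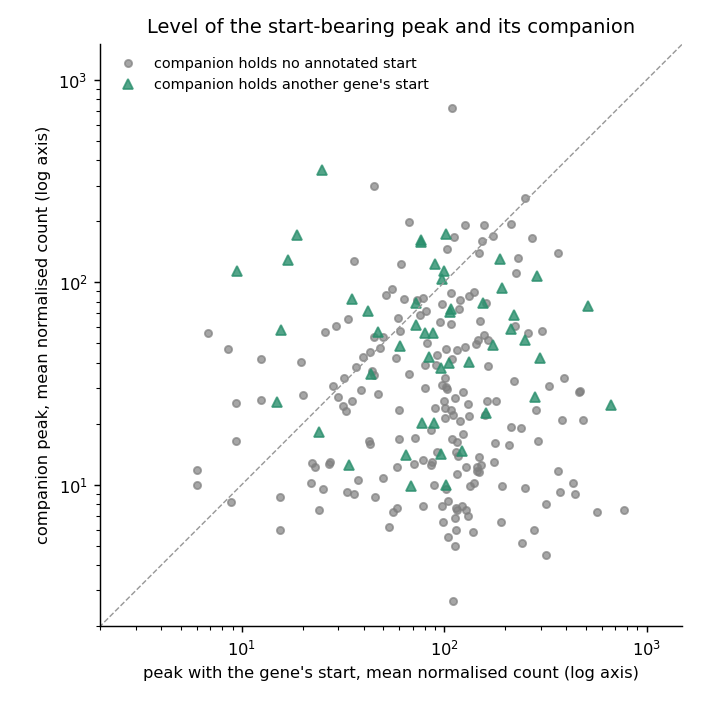
Mean normalised count over 6 libraries (log axes) of the peak that holds the start of the gene and of its companion, 1 point for each of 240 pairs, with triangles where the companion holds a start of another gene. The dashed line marks equal levels, and 187 points lie below it.

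In the 47 genes with annotated starts in both peaks the median ratio between the higher and the lower peak was 2.01-fold, against 3.56-fold where the companion held no start and 2.64-fold where it held the start of another gene. The downstream peak was the higher in 22 of the 47. They included several regulators and muscle genes. Srebf1, the master regulator of lipid synthesis whose SREBP-1a and SREBP-1c forms come from separate promoters, had 34, 26 and 51 normalised counts upstream in CtrlCre and 45, 32 and 35 in Cpt1bcKO, against 100, 109 and 85 and then 73, 99 and 90 downstream, so that the downstream start was the higher in every library. Plec, the cytolinker plectin with many alternative first exons, had 26, 28 and 20 upstream against 109, 116 and 106 downstream in CtrlCre, and 17, 18 and 29 against 145, 131 and 166 in Cpt1bcKO. Zeb2, a zinc-finger repressor, Sox6, a transcription factor of muscle and heart development, Nfia, a nuclear factor I protein, and Mlip, a lamin-interacting protein of muscle, also had the higher peak downstream in all 6 libraries. Nfatc1, a transcription factor of calcineurin signalling, had a ratio of 1.17-fold between the means, with the upstream peak the higher in all 6 libraries but with values that overlap between the peaks in both genotypes. Zbtb7b, Dnttip2 and Hdgf had the higher peak upstream.

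**Figure D3:**
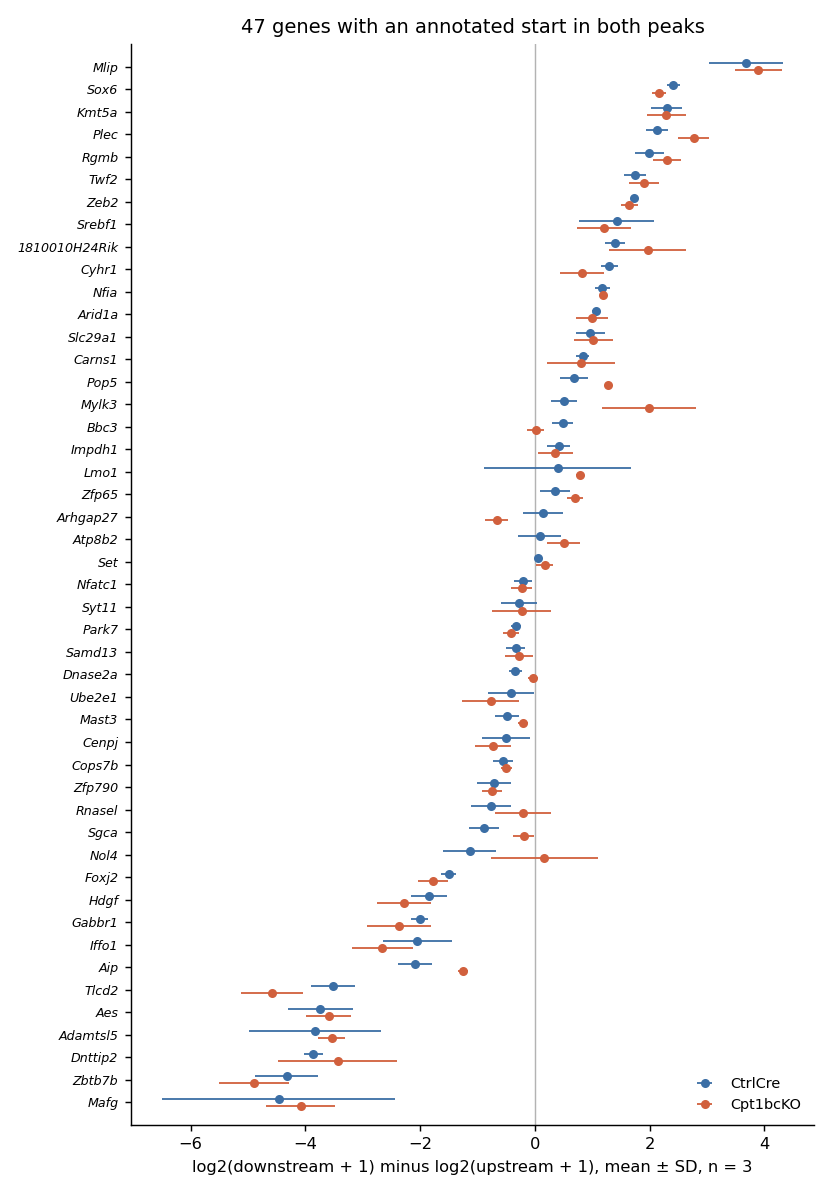
For the 47 genes with an annotated start in both peaks, log2(value + 1) of the downstream peak minus that of the upstream peak, as mean ± SD of 3 libraries for each genotype. Positive values mean a higher downstream peak. Genotypes stay near each other for most genes, and Mylk3, Sgca, Bbc3 and Plec are among those with shifted means.

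Each gene's division of signal was close between the genotypes when summarised over genes. In 255 genes with every peak at the tested level, the median share of a gene's signal in its strongest peak was 71.4%, 70.8% and 69.8% in the CtrlCre libraries and 72.5%, 70.9% and 72.3% in the Cpt1bcKO libraries, so that the ranges overlap. The means were 70.7 ± 0.842% (SD, n = 3) and 71.9 ± 0.867% (SD, n = 3). The median of log2(downstream) minus log2(upstream) over 258 pairs was 0.39 ± 0.079 in CtrlCre and 0.46 ± 0.042 in Cpt1bcKO (SD, n = 3). The peaks of multi-peak genes took 3.04 ± 0.0413% of the normalised counts in CtrlCre and 2.98 ± 0.0324% in Cpt1bcKO.

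Genotype was compared by limma on log2(value + 1) in all peaks with a mean of at least 10, which kept 562 of the 617 peaks and 15039 peaks of the table, with Benjamini-Hochberg adjustment over the 15039. Of the 562 peaks, 6 rose and 9 fell at an adjusted p under 0.05 (2.67%), near the 2.93% called over all tested peaks (1.11% higher and 1.82% lower). At an unadjusted p under 0.05 there were 28 higher and 62 lower of the 562, beside 12.8% over all tested peaks (5.84% higher and 6.98% lower). In sorted nuclei measured in bulk, fewer nuclei with a mark and less mark in each nucleus cannot be told apart. Genotypes did not overlap in 42 peaks that were higher and 66 that were lower, 19.2% against 16.3% over all tested peaks. The median log2 difference, Cpt1bcKO minus CtrlCre, was -0.03 over the 562 peaks and 0.01 over all tested peaks. Size factors scale the libraries to each other, so rises and falls are relative to the other peaks. A change of the mark shared by all peaks would not show in these values. By western blot of sorted nuclei, the paper reports a lower level of H3K4me3 in Cpt1bcKO. In peaks with the start of the gene whose companion had none, 3 rose and 4 fell of 232, and of 200 companions 3 rose and 1 fell. The median level of the shallowest library corresponded to 24 counts in a peak, a counting error of 20.4%, against 10.8 to 14.4% in the other 5.

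The median CpG ratio of the 15 called peaks was 0.241, against 0.615 over the 562 tested peaks of multi-peak genes, and 11 of the 15 lay below that median. In the whole table the medians were 0.339 over 441 called peaks and 0.673 over 15039 tested peaks, and 358 of the 441 (81.2%) lay below the median of tested peaks. Of the 15 called peaks, 11 held an annotated start of their gene, beside 53.8% of the 617 peaks and 72.1% of all peaks.

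Whether 2 peaks of a gene changed to a different extent was asked by limma on the difference between the log2 values of the downstream and the upstream peak, fitted over all 262 pairs with both peaks tested, of which 258 are autosomal. In 6 pairs (2.29% of the 262) the difference between genotypes passed an adjusted p under 0.05, 3 towards the downstream and 3 towards the upstream peak. At an unadjusted p under 0.05 there were 41 pairs (15.6% of the 262). Pairs of neighbouring tested peaks of different genes, up to 9232 bases apart, gave a background: with all 1339 neighbouring pairs of the table as the family, 3 of 261 same-gene pairs were called (1.15%), 8 of 712 pairs of different genes (1.12%) and 2 of 366 pairs with a peak without a gene (0.546%). The unadjusted shares were 16.1%, 13.2% and 12.6%. These 3 kinds of pair were unlike in precision, which limits the comparison. Their median SE was 0.316, 0.212 and 0.349, and the median level of the lower peak was 33.3, 72.4 and 22.9. The median distance between peak centres was 4372.5, 6600.75 and 7091.75 bases. The log2 differences of both peaks of a gene had the same sign in 148 of 258 pairs (57.4%). Across these pairs, which share all libraries, the Pearson r was 0.088 and the Spearman rho 0.10. Neighbouring pairs of different genes had an r of 0.078 and a rho of 0.096. Those with a peak without a gene had 0.213 and 0.133.

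**Figure D4:**
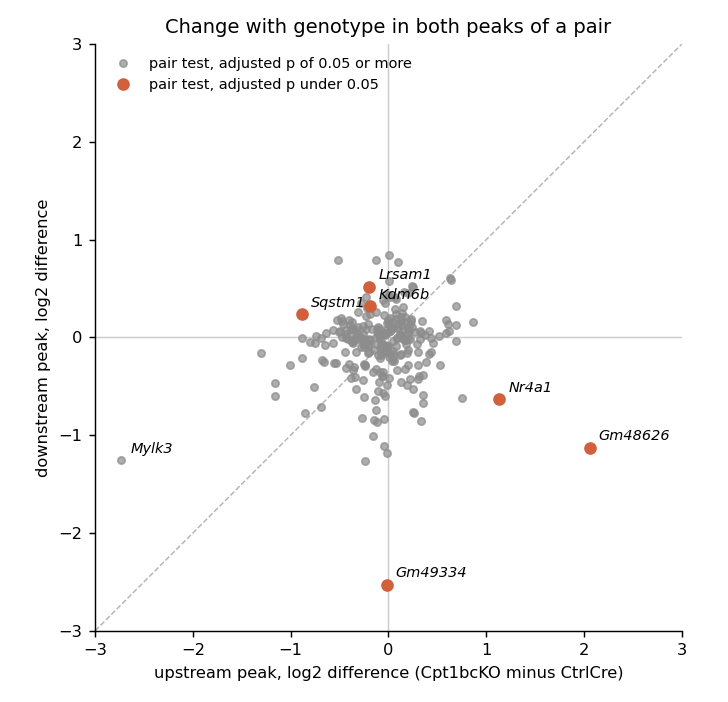
Log2 difference with genotype (Cpt1bcKO minus CtrlCre) in the upstream peak (horizontal axis) and the downstream peak (vertical axis) of 258 pairs. Coloured points are the 6 pairs called by the pair test, the dashed line marks equal change, and Mylk3 lies lowest in the upstream peak, at -2.73.

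Nr4a1, an orphan nuclear receptor that is induced as an immediate-early gene and acts on metabolism, was the gene in which 2 called peaks moved in opposite directions. Its downstream peak, chr15:101265691-101267927, holds the start of Nr4a1-201 at position 101266846 and is rich in CpG. It read 93, 74 and 101 in CtrlCre and 63, 53 and 55 in Cpt1bcKO, so that every Cpt1bcKO library was lower. It fell by 0.63 ± 0.17 on the log2 scale (SE, adjusted p = 0.046). The upstream peak, chr15:101260597-101262719, lies in an intron, holds no annotated start and has a CpG ratio of 0.199. It read 43, 44 and 65 in CtrlCre and 84, 129 and 124 in Cpt1bcKO, without overlap. It rose 2.22-fold in its mean, by 1.13 ± 0.19 on the log2 scale (SE, adjusted p = 0.00103). The higher peak of the gene thus changed from the downstream to the upstream one, without overlap in either genotype, and the pair test gave -1.77 (adjusted p = 0.00089 by limma). The call of the downstream peak was lost when any 1 of 5 libraries was left out (all but CtrlCre replicate 2), with an adjusted p of 0.00825 to 0.209 over the alternatives, whereas the upstream peak and the pair stayed below 0.05 in every alternative in which they were tested.

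Mylk3, the cardiac myosin light chain kinase that phosphorylates the regulatory light chain and supports sarcomere assembly, lost signal at both of its annotated starts. The upstream peak, chr8:85384412-85386690, holds the start of Mylk3-204 at position 85386345. It read 74, 65 and 77 in CtrlCre and 21, 5 and 9 in Cpt1bcKO, a change of -2.73 ± 0.37 on the log2 scale (SE, adjusted p = 6.16e-05). The downstream peak, chr8:85378374-85382581, holds the starts of Mylk3-203 and Mylk3-205. It read 101, 81 and 130 in CtrlCre and 50, 42 and 36 in Cpt1bcKO, a change of -1.25 ± 0.19 (SE, adjusted p = 0.000395). Both windows are poor in CpG, as the printed sequences show. It was the gene with 2 called peaks in the same direction. The mean fold was lower at the upstream start, but the difference of 1.48 ± 0.40 on the log2 scale (SE) had an adjusted p of 0.0543, which ranged from 0.00237 to 0.192 over the alternatives and was 0.0227 without Cpt1bcKO replicate 1.

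**Figure D5:**
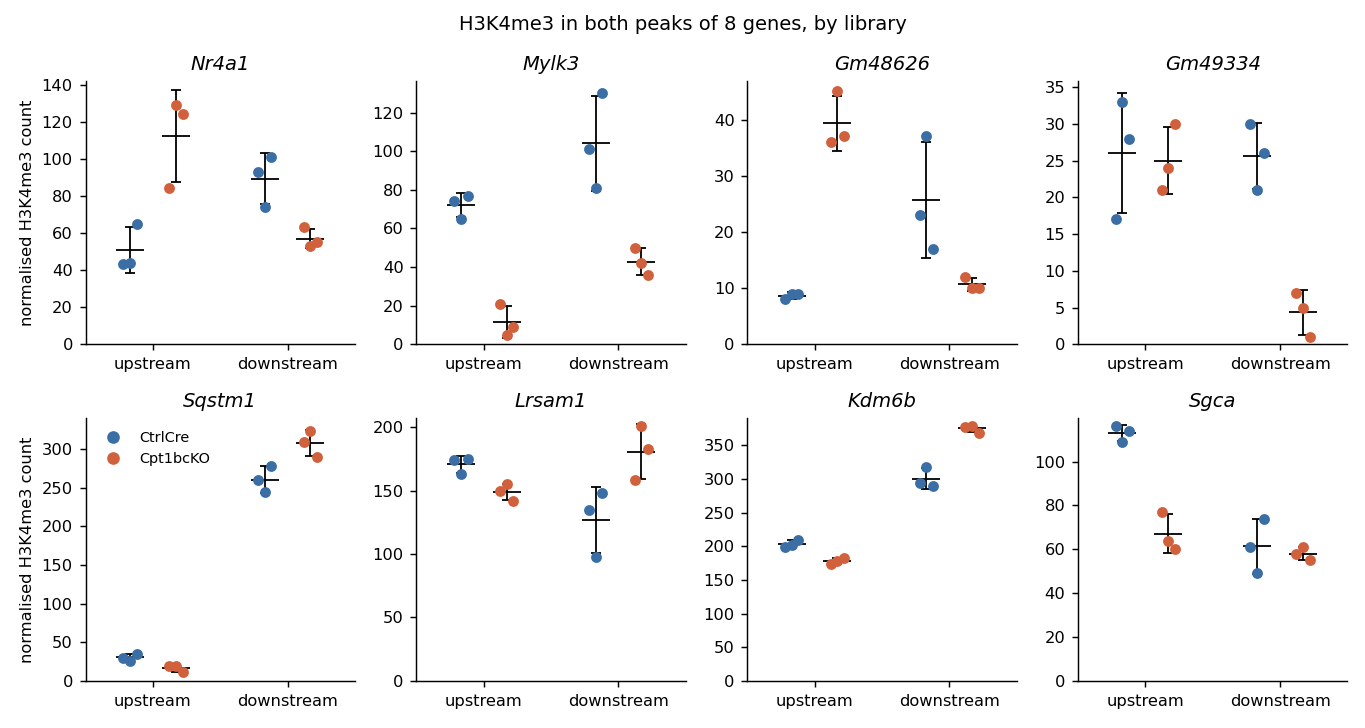
Normalised H3K4me3 counts in the upstream and downstream peak of 8 genes, 1 point for each library, with the mean ± SD of 3 libraries for each genotype. Nr4a1, Lrsam1 and Gm48626 change the order of their peaks with genotype, both Mylk3 peaks fall, and in Sgca the upstream peak falls from 109 to 116 down to 60 to 77 while the downstream peak overlaps.

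In Sgca and Bbc3 1 of the annotated starts changed. Sgca encodes α-sarcoglycan of the dystrophin complex that links the muscle cytoskeleton to the matrix. Its upstream peak, chr11:94975104-94976417, with the start of Sgca-202 and Sgca-205, read 116, 109 and 114 in CtrlCre and 77, 64 and 60 in Cpt1bcKO and fell by 0.75 ± 0.15 on the log2 scale (SE, adjusted p = 0.00416). Its downstream peak, chr11:94972460-94973479, with the start of Sgca-201, read 61, 49 and 74 against 58, 61 and 55, with overlap and an adjusted p of 0.951. The pair test did not call the difference between them, at 0.69 ± 0.25 (SE, adjusted p = 0.177). Bbc3 encodes the pro-apoptotic protein PUMA. Its CpG-rich upstream peak, chr7:16309126-16310769, read 114, 119 and 103 in CtrlCre and 107, 103 and 122 in Cpt1bcKO. Its CpG-poor downstream peak, chr7:16311880-16314530, with the start of Bbc3-203, read 141, 191 and 143 against 104, 116 and 114 and fell by 0.49 ± 0.13 (SE, adjusted p = 0.0375). The difference between the 2 starts, -0.47 ± 0.18 (SE), had an adjusted p of 0.206, and the fall of the downstream peak lost its call when any 1 of 5 libraries was left out (all but CtrlCre replicate 3), with an adjusted p of up to 0.184. Of the 45 such pairs that were tested the pair test by limma called 0, with 9 at an unadjusted p under 0.05, the smallest p being that of Mylk3, which limma-voom on the recovered counts called.

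The other called pairs lay at genes with a start in at most 1 peak by GENCODE vM21. In Sqstm1, the autophagy receptor p62, the downstream peak at the start, chr11:50208249-50211463, read 260, 244 and 278 in CtrlCre and 310, 324 and 290 in Cpt1bcKO. It also holds a start of Mgat4b. The upstream peak, chr11:50212705-50213736, read 30, 26 and 35 against 19, 19 and 11. The groups do not overlap in either peak and the directions are opposite, but neither peak passed on its own (adjusted p of 0.258 and 0.223). The pair difference was 1.12 ± 0.24 (SE, adjusted p = 0.0211), and it lost its call without CtrlCre replicate 3 and without Cpt1bcKO replicate 3, with an adjusted p of up to 0.154 over the alternatives.

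In Kdm6b, which encodes the H3K27 demethylase JMJD3, the GENCODE start lay in the gap, whereas RefSeq places starts in both peaks. The upstream peak, chr11:69415235-69421151, read 199, 202 and 210 in CtrlCre and 174, 178 and 182 in Cpt1bcKO. The downstream peak, chr11:69408099-69412069, read 294, 318 and 290 against 378, 379 and 369. The genotypes did not overlap in either peak. The difference was 0.51 ± 0.12 on the log2 scale (SE, adjusted p = 0.0336), and neither peak passed on its own (adjusted p of 0.43 upstream and 0.0627 downstream).

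In Lrsam1, an E3 ubiquitin ligase, the downstream peak at the start, chr2:32960918-32962924, which also holds the start of the ribosomal protein gene Rpl12, read 135, 98 and 148 in CtrlCre and 158, 201 and 183 in Cpt1bcKO, a rise of 0.52 ± 0.14 (SE, adjusted p = 0.0385). The intergenic upstream peak, chr2:32966331-32969608, read 174, 163 and 175 against 150, 155 and 142. The order of the peaks changed with genotype without overlap in either, and the pair difference was 0.71 ± 0.17 (SE, adjusted p = 0.0373). The calls of the Lrsam1 pair, its downstream peak and the Kdm6b pair were each lost under 7 alternatives, for Lrsam1 among them without CtrlCre replicate 1 or 2 or Cpt1bcKO replicate 2 or 3 and for Kdm6b without any 1 library but CtrlCre replicate 2, with an adjusted p of up to 0.191, 0.219 and 0.191. Which of both genes the signal at the shared peak belongs to cannot be told apart.

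Both remaining pairs belonged to non-coding genes that border a start of a protein-coding gene. The upstream peak of Gm48626, chr13:35030834-35032419, with its annotated start, read 8, 9 and 9 in CtrlCre and 36, 45 and 37 in Cpt1bcKO, a rise of 2.06 ± 0.35 on the log2 scale (SE, adjusted p = 0.000993), while its downstream peak, chr13:35026604-35027174, read 23, 37 and 17 against 12, 10 and 10. That downstream peak holds an annotated start of Eci2, an enoyl-CoA isomerase of the oxidation of unsaturated fatty acids. The main Eci2 peak lies farther down, at chr13:34991567-34995034, and read 168, 235 and 192 against 232, 246 and 212 (adjusted p = 0.433). The pair difference of Gm48626 was -3.18 (adjusted p = 0.00089 by limma). The downstream peak of Gm49334, chr9:60527226-60528111, which holds its start, read 30, 21 and 26 in CtrlCre and 7, 5 and 1 in Cpt1bcKO, and fell by 2.53 ± 0.54 (SE, adjusted p = 0.00916, and up to 0.0937 over the alternatives, without CtrlCre replicate 1). Its upstream peak, with a start of Thsd4, read 17, 33 and 28 against 21, 24 and 30, and the pair difference was -2.51 (adjusted p = 0.0472 by limma), a call that was lost under 8 of 14 alternatives, among them without CtrlCre replicate 1 or 3 or Cpt1bcKO replicate 2 or 3. A floor of 3 counts corresponds to 1.95 to 6.97 normalised counts across libraries, and the value of 1 in Cpt1bcKO replicate 3 lies under its floor of 2.16.

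Just outside the threshold at an adjusted p of 0.0543 stood Prkaca, the catalytic subunit of protein kinase A, Mylk3 and Tnnt2. At Prkaca the upstream peak with the start read 116, 126 and 130 in CtrlCre and 128, 108 and 132 in Cpt1bcKO, and the downstream peak in an intron read 24, 46 and 52 against 21, 14 and 15. At Tnnt2 the downstream peak with the starts read 678, 644 and 777 against 683, 712 and 502, and the upstream peak, which holds a start of Lad1, read 40, 51 and 18 against 15, 16 and 9. All 3 passed when pairs with a gap under 1000 bases were left out and limma was fitted again, at an adjusted p of 0.0432. The reason for this shift was not tested.

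The other called peaks lay in genes whose second peak did not pass. Agpat2, an acyltransferase of phosphatidic acid and triglyceride synthesis, rose in its upstream peak, chr2:26606946-26613392, which holds no annotated start, from 138, 156 and 143 to 245, 279 and 189 (0.69 ± 0.12 on the log2 scale, SE, adjusted p = 0.00172). The peak at its start read 97, 123 and 119 against 138, 136 and 148, with an adjusted p of 0.235. Tmem171, a transmembrane protein gene, rose at its start (96, 135 and 80 against 157, 160 and 157, adjusted p = 0.0159). Rgma, a repulsive guidance molecule and BMP co-receptor, fell at its start, in a peak that also holds a start of A730056A06Rik (195, 205 and 175 against 138, 121 and 146, adjusted p = 0.0122). Wfdc1, a secreted WAP-domain protein, fell at its start (62, 63 and 58 against 38, 36 and 25, adjusted p = 0.0308), and Cradd, a death-domain adaptor, fell in an internal peak that holds no start of its own and a start of Gm48882 (51, 53 and 67 against 36, 29 and 20, adjusted p = 0.0279). In these 5 genes the genotypes did not overlap in the called peak. The call of Agpat2 was kept in every alternative. The call of Tmem171 was lost without any 1 library but CtrlCre replicate 2, that of Wfdc1 without any but Cpt1bcKO replicate 1, that of Rgma without CtrlCre replicate 1 or Cpt1bcKO replicate 2, and that of Cradd without CtrlCre replicate 1 or 3 or Cpt1bcKO replicate 2 or 3, with an adjusted p of up to 0.102, 0.138, 0.0845 and 0.152 over the alternatives. Among 3-peak genes, Gm11292 rose in the first of its peaks, chr13:22020024-22022443, from 162, 151 and 178 to 226, 265 and 213 (adjusted p = 0.00808, and up to 0.0791 over the alternatives, without Cpt1bcKO replicate 2), while the others read 62 to 75 and 28 to 45 with overlap. Pde4a, a cAMP phosphodiesterase, read 46, 35 and 48 against 31, 18 and 22 in its middle peak and 57, 56 and 59 against 31, 40 and 29 in its downstream peak, with adjusted p of 0.126 and 0.0609, and 28, 14 and 28 against 29, 27 and 29 in its upstream peak. Foxo6, a forkhead factor, had overlapping genotypes in all its peaks, at 14 to 21, 31 to 67 and 36 to 56 from upstream to downstream.

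In 9 genes 2 peaks had an unadjusted p under 0.05. In 6 the directions were the same (Agpat2, Isyna1, Mylk3, Pde4a, Rgma and Zbtb16) and in 3 opposite (Gm48626, Nr4a1 and Sqstm1). Isyna1, the inositol-3-phosphate synthase, read 52, 65 and 46 against 29, 35 and 35 at its start and 49, 44 and 39 against 29, 25 and 25 in the companion, which holds a start of Ssbp4. Zbtb16, the transcription factor PLZF, read 409, 379 and 451 against 397, 377 and 281 at its start and 27, 23 and 37 against 11, 21 and 6 in the companion. None of these 4 peaks passed after adjustment, at p of 0.124 to 0.377.

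Genes of 4 lists drawn up for heart biology were looked up among the genes with several peaks, which make up 2.56% of autosomal genes with a peak. Of 55 genes of the sarcomere, Z-disc and calcium handling, 47 had a peak and 4 were members (8.51% of those with a peak; Mylk3, Tnnt2, Speg and Xirp1), of whose 8 tested peaks 0 rose and 2 fell by limma, both at Mylk3. Their median log2 difference was -0.30, against 0.01 over all tested peaks. Over all 51 tested peaks of that list 1 rose and 8 fell, beside 1.11% higher and 1.82% lower over all tested peaks. Of 50 genes known for more than 1 promoter, 38 had a peak and 5 were members (13.2% of those with a peak; Speg, Plec, Lef1, Nfia and Bdnf), with 0 of 9 tested peaks called by limma and a median of -0.08. Bdnf, a neurotrophin, was near the floor in CtrlCre, at 10, 12 and 7 against 18, 16 and 36 in its upstream peak and 7, 7 and 4 against 7, 5 and 26 in its downstream peak. Among 45 heart transcription factors and coactivators 39 had a peak and 1 was a member (2.56%), Nfatc1, with 0 of 2 peaks called by limma (median -0.26), and among 72 genes of fatty acid and energy metabolism 64 had a peak and 1 was a member (1.56%), Slc2a1, the glucose transporter GLUT1, with 124, 88 and 116 against 128, 115 and 112 at its start and 5 to 8 in its upstream peak. Of the tested peaks of these genes, both of Mylk3 and 1 each of Bdnf, Plec, Nfatc1 and Tnnt2 had an unadjusted p under 0.05, and limma-voom on the recovered counts called those of Mylk3 alone.

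The identity of the nuclei was read from the whole table. All 10 CM markers had a peak, and Tnnt2, the marker that is a member, is described above. Of 8 markers each, 1 fibroblast, 2 endothelial, 5 mural and 0 leukocyte genes had a peak, and Col1a1, Col1a2, Col3a1, Pecam1, Cdh5, Pdgfrb and Ptprc were among those without one. Summed over genes, CM markers spanned 8185 to 9698 in CtrlCre and 6032 to 8853 in Cpt1bcKO, fibroblast markers 58 to 69 and 56 to 63, endothelial markers 64 to 135 and 64 to 88, and mural markers 185 to 282 and 64 to 132. Limma called lower 1 of 11 tested CM marker peaks, 1 of 5 mural, 0 of 1 fibroblast and 0 of 2 endothelial peaks. The part of these cell types in the results was not tested. The peaks held 763133 to 2766416 counts per library. The Cpt1b peak, chr15:89421995-89431151, lies over the start of the gene and ends before the floxed exons 10 and 11 (numbered as in Cpt1b-201), so it does not test the deletion. It was the sole Cpt1b peak and rose from 428, 407 and 436 to 572, 689 and 568 (adjusted p = 0.00357). The same peak also holds starts of Chkb, C730034F03Rik and Gm44502, and which of these genes the rise belongs to cannot be told apart.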

How the data were processed

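H3K4me3 ChIP-seq was done on sorted CM nuclei of 3 CtrlCre and 3 Cpt1bcKO samples, with 6 input libraries that have no column in the peak table. Per the study's methods and the submitters' processing notes, the authors checked reads with FastQC 0.11.8, trimmed them with Trimmomatic 0.39, aligned them with STAR 2.6.1d to mm10 (GRCm38.p5), kept unique alignments, removed duplicates with Picard 2.21.7, called peaks with MUSIC in punctate mode (FDR 0.2) against input for each library, removed blacklisted regions, merged the peaks and assigned a peak to a gene within 5000 bases of a GENCODE vM15 start. The authors deposited counts per peak divided by DESeq2 1.26.0 size factors and rounded to whole numbers, treated as a score. The deposited genotype means are the same signal unrounded. From these means and values whole counts were recovered in 15848 of 15848 peaks, with size factors, and used for depth and for 1 alternative. The authors' fold change, p-value and adjusted p-value columns were not used.

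Peaks that averaged 10 or more across the libraries were tested with limma 3.58.1 (trend, R 4.3.3) on log2(value + 1), genotype alone, two-sided, with Benjamini-Hochberg adjustment over all tested peaks. Changes are on this scale, which understates those of low peaks. The pair test used the difference between log2 values of neighbouring peaks of a gene, adjusted over all pairs. Starts were those of GENCODE vM21 on GRCm38.p6, which shares coordinates with mm10, and 306 of 307 member gene identifiers matched. Scripts were tested on simulated data. The Wilson interval treats the 310 pairs as draws, and floors cover counting error. The members and gene lists were chosen with earlier results of these data known.

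Genes were named by rule: called pairs, genes with 2 called peaks, genes with peaks changed in opposite directions at an unadjusted p under 0.05, list genes with a call, the 3 genes with most peaks, and the 3 least and 3 most unequal pairs. Others were named after their values were seen. Alternatives were a pseudocount of 0.5 or 5, no minimum or a mean of at least 50, quantile normalization, a replicate block, limma-voom on the recovered counts, each library left out, diffSplice, comparison with the strongest peak, a minimum gap of 1000 bases, other start definitions, and, added after seeing the data, all neighbouring peaks as the family, peaks without a start of another gene, and RefSeq starts.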

Additional observations from a re-analysis of the deposited data

How the results depend on the processing

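In 245 of 319 repeats of the 24 named peaks and pairs the call stood as in the main fit. It was lost in 66 and gained in 8, and 8 of the 24 kept their call in every repeat. None of the 319 turned in direction, which says little. Several settings, such as the replicate block, return the same estimate, and leaving out 1 library keeps all the others. In place of 15 peaks, 9 were called with a minimum mean of 50, where fewer peaks were tested, and leaving out 1 library gave 8 to 17, with 8 without CtrlCre replicate 1 or Cpt1bcKO replicate 2 and 9 without Cpt1bcKO replicate 3. The other settings gave 12 to 20. The 2 genes with 2 called peaks became 0 with a minimum mean of 50, 1 with quantile normalization and 1 with the replicate block, and 1 to 2 without 1 library (1 without any of them but CtrlCre replicate 2). The 6 called pairs became 3 with a minimum mean of 50, 2 with diffSplice, 2 among pairs without a start of another gene, 3 with all neighbouring peaks as the family, and 2 to 6 without 1 library, with 2 without Cpt1bcKO replicate 3. Limma-voom on the recovered counts called 8. Nr4a1 and Gm48626 were the 2 pairs called by diffSplice, by the replicate block and without Cpt1bcKO replicate 3. Same-numbered libraries had correlations of 0.0759, -0.0812 and 0.105 in their deviations. With 3 libraries for each genotype these values cannot exclude a pairing, and the paper states that controls were littermates. The replicate block gave 2 called pairs and 13 called peaks. The share of signal in the strongest peak was 66.5% in CtrlCre and 68.2% in Cpt1bcKO when the strongest was chosen per kilobase, and 70.3 to 71.3% and 71.6 to 72.3% without 1 library. Pairs with both starts numbered 56 with starts within 500 bases and 56 with vM21 or RefSeq starts. The median SE was 0.27 for companions and 0.14 for start-bearing peaks. Causes of these shifts were not tested beyond the number of peaks or libraries used.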
